A study of Drosophila melanogaster with 10 samples.

Results

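The cell death regulators and caspases examined here are 10 Drosophila melanogaster genes chosen by name: rpr, hid, grim, skl, Diap1, Dark, Dronc, Drice, Buffy and debcl. All 10 were found among the 15259 genes to which rows of the count table could be matched, and each gene was read from its transcript of highest total count. Their FlyBase identifiers are FBgn0011706 (rpr), FBgn0003997 (hid), FBgn0015946 (grim), FBgn0036786 (skl), FBgn0260635 (Diap1), FBgn0263864 (Dark), FBgn0026404 (Dronc), FBgn0019972 (Drice), FBgn0040491 (Buffy) and FBgn0029131 (debcl). RNA was sequenced from 2 tissues of animals kept at 25 °C, with 10 libraries in all. Flight muscle came from pharate animals 96 h after puparium formation, with 2 libraries per genotype. The notum part of the wing disc came from wandering larvae, with 3 libraries per genotype, and it holds adult muscle precursors beside disc epithelium. Every animal carried P{UAS-Dicer2.D}1 and a GAL4 driver of Mef2, which is active in the muscle lineage. The animals labelled Rbf-KD also carried a hairpin against Rbf (UAS-Rbf-RNAi, line GD:10696), and the controls labelled WT carried a hairpin against mCherry (UAS-mCherry-RNAi at attP2). Disc epithelium lies outside the lineage in which the driver acts. The labels do not say whether replicates came from separate animals, so p-values measure only the spread between these libraries.

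In flies, apoptosis is held back by Diap1, an inhibitor of apoptosis protein that binds caspases and marks them for degradation. The small proteins encoded by rpr, hid, grim and skl bind Diap1 and release the caspases from it. The initiator caspase Dronc is then activated on the adaptor Dark, and Dronc cleaves effector caspases such as Drice. Buffy and debcl encode the Bcl-2 family proteins of the fly, of which Buffy is known mainly as protective and Debcl as promoting death. Rbf, a retinoblastoma protein of the fly, holds E2F transcription factors inactive, and regulators of apoptosis are among the genes that E2F has been reported to control. In the BDGP6 annotation hid, grim, rpr and skl follow each other in this order on chromosome arm 3L, where Diap1 and Dronc also lie. Drice is on 3R, and Dark, Buffy and debcl are on 2R.

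Gene counts summed to between 53864590 and 73408335 per flight muscle library and between 42097050 and 55401980 per notum library. Levels below are in CPM (counts per 1e6 of the library total after scaling by TMM, which assumes that most genes do not differ between libraries). The choice of scaling decides many directions in flight muscle. With plain library totals, the median log2 fold change of all genes moves up by 1.11 for Rbf-KD against WT flight muscle. For WT flight muscle against WT notum it moves down by 2.75. In notum the shift between genotypes was 0.01. Both scales are therefore given, and beside them the percentage of genes with a lower fold change than the member's with TMM. The Rbf count went against the label in flight muscle, where the libraries labelled Rbf-KD held 1210 and 1454 counts, against 187 and 203 in WT (log2 1.48, SE 0.17, edgeR adjusted p = 0.00229). In notum a knockdown of Rbf was not detectable (log2 -0.25, SE 0.18, edgeR adjusted p = 1.00). Whether the Rbf row also holds reads of the hairpin was not tested. Directions below are those of the libraries as labelled. The 8 flight muscle markers summed to between 174000 and 179000 CPM in Rbf-KD flight muscle and between 577000 and 621000 CPM in WT flight muscle. In the notum libraries they summed to between 134 and 197 CPM. These sums are per 1e6 of the scaled total, not of all counts. The TMM factors were 0.595 and 0.551 in Rbf-KD flight muscle, against 0.277 and 0.277 in WT flight muscle. Between these genotypes the markers' median log2 fold change was -1.55 with TMM and -0.43 with library totals. None of the markers examined was at 0 counts over any group.

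The order of the members' levels differed between the tissues. Per kilobase of transcript, Diap1 stood highest in Rbf-KD flight muscle at 48.7 CPM per kb, followed by Dronc at 28.3 and Dark at 26.3, whose ranges overlapped. In WT flight muscle Dronc (68.6 CPM per kb) and Diap1 (65.0) led with overlapping ranges, and Buffy was next at 43.7. Drice came after Buffy in Rbf-KD flight muscle and after Dark in WT flight muscle, and debcl was sixth in both. The notum libraries of both genotypes shared their first places, with Diap1 at 79.9 CPM per kb in Rbf-KD and 73.8 in WT, Dronc at 37.6 and 35.0, and Drice at 33.5 and 32.9. Dark, hid and debcl lay between 11.3 and 13.4 CPM per kb there, and neighbours among them overlapped. Buffy was eighth in notum, at 2.03 CPM per kb in Rbf-KD and 2.06 in WT. Among the antagonists of Diap1, rpr and hid came seventh and eighth in flight muscle, in Rbf-KD at 1.89 and 1.64 CPM per kb with overlapping ranges, and in WT in the other order, with hid at 4.58 and rpr at 1.85. In every group skl was ninth, between 0.0940 and 0.330 CPM per kb, and grim was last.

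**Figure D1:**
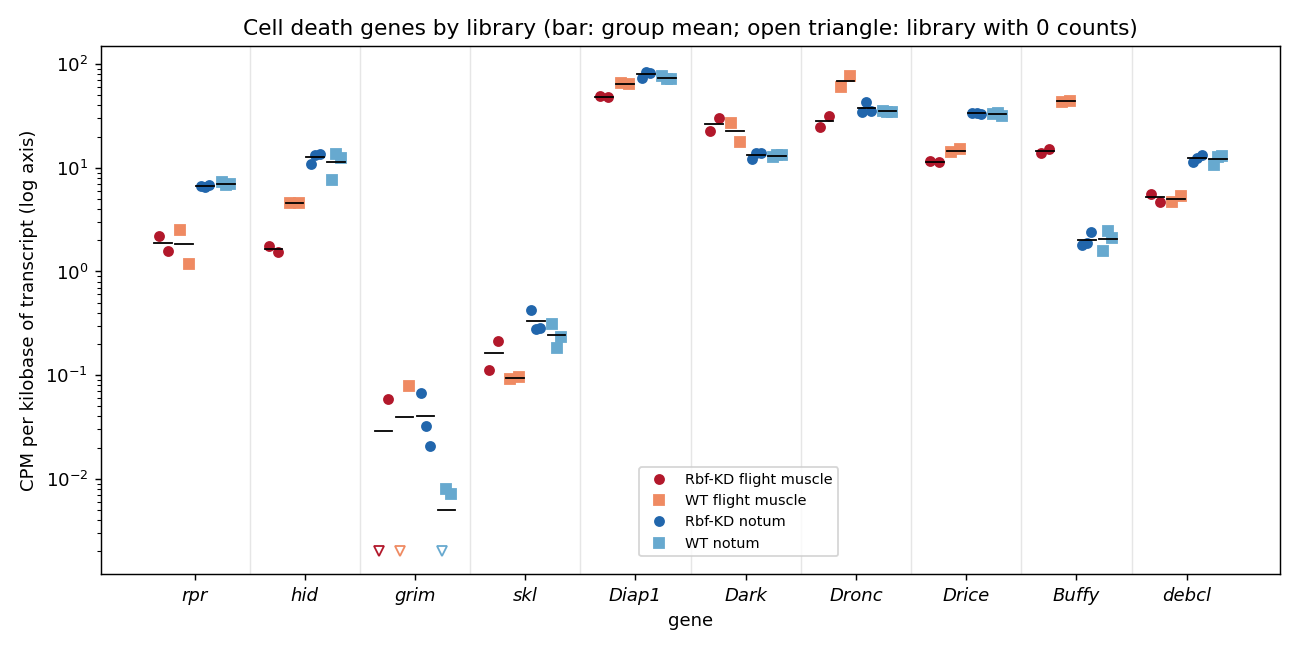
Levels of the 10 genes in CPM per kilobase of transcript (log axis), 1 point per library in the 4 groups, with bars for group means and open triangles for libraries with 0 counts. Buffy stands far higher in both flight muscle groups (14.6 and 43.7 CPM per kb) than in notum (2.03 and 2.06), while grim and skl stay at the bottom in all 4 groups.

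Of the antagonists of Diap1, hid was the member that changed with genotype in flight muscle. Counts of hid were 225 and 248 in Rbf-KD flight muscle, against 293 and 274 in WT flight muscle, while the scaled totals of the Rbf-KD libraries (32067051 and 40429236) were larger than those of WT (15856302 and 14951176). In CPM this was 6.58 ± 0.624 in Rbf-KD and 18.4 ± 0.108 in WT (mean ± SD, n = 2 each). The groups did not overlap, and hid fell by 1.54 on the log2 scale (SE 0.19, edgeR adjusted p = 0.00281). With library totals the fold change was -0.43 and did not pass (adjusted p = 0.111). Of all genes tested, 6.1% had a lower fold change than hid.

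The other 3 antagonists showed no detectable change in flight muscle. Counts of rpr were 64 and 57 in Rbf-KD flight muscle, against 36 and 16 in WT, or 1.70 ± 0.414 CPM and 1.67 ± 0.849 CPM (n = 2 each). The WT libraries lay apart from each other and enclosed the Rbf-KD libraries (log2 -0.03, SE 0.50, edgeR adjusted p = 0.972). The gene skl had 5 and 12 counts in Rbf-KD flight muscle and 2 and 2 in WT. It did not pass the filter on low counts there, and the ratio of its summed normalised counts was 1.81 with a 95% interval of 0.589 to 7.38, which covers counting error only. Of grim there were 0 and 4 counts in Rbf-KD flight muscle and 0 and 2 in WT. A count of 0 allows up to 3 counts, so no difference of grim was detectable at this depth.

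Diap1, the inhibitor on which these antagonists act, had 3636 and 4487 counts in Rbf-KD flight muscle, against 2406 and 2210 in WT. This came to 112 ± 1.70 CPM in Rbf-KD and 150 ± 2.77 CPM in WT (n = 2 each), with no overlap. Diap1 fell by 0.48 on the log2 scale with TMM (SE 0.11, edgeR adjusted p = 0.0232) but was higher by 0.63 with library totals (SE 0.11, adjusted p = 0.00564). The call on the TMM scale was lost without any 1 of the 4 libraries (adjusted p between 0.0643 and 0.123), and 26.8% of genes had a lower fold change.

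The initiator caspase gene Dronc changed with genotype, whereas its adaptor did not on the TMM scale. Dronc had 1591 and 2598 counts in Rbf-KD flight muscle, against 1943 and 2298 in WT, or 56.9 ± 10.4 CPM and 138 ± 22.0 CPM (n = 2 each). Both Rbf-KD libraries lay below both WT libraries, and Dronc fell by 1.34 on the log2 scale (SE 0.19, edgeR adjusted p = 0.00489). With library totals it was at -0.23 and did not pass (adjusted p = 0.248), while 8.1% of genes had a lower fold change.

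Dark, which encodes the Apaf-1 homologue that assembles Dronc, had 3469 and 5882 counts in Rbf-KD flight muscle, against 2084 and 1289 in WT. In CPM it was at 127 ± 26.4 in Rbf-KD and 109 ± 32.0 in WT (n = 2 each), and the groups overlapped because WT replicate 1 lay above Rbf-KD replicate 1. With TMM the change of Dark was 0.16 on the log2 scale (SE 0.24, edgeR adjusted p = 0.614) and with library totals it was 1.26 (adjusted p = 0.00890). Drice, an effector caspase gene, had 713 and 883 counts in Rbf-KD flight muscle, against 434 and 437 in WT. At 22.0 ± 0.279 CPM in Rbf-KD and 28.3 ± 1.31 CPM in WT (n = 2 each) the groups did not overlap. The log2 fold change of Drice was -0.42 (SE 0.15, edgeR adjusted p = 0.0707), and with library totals it was 0.69 (adjusted p = 0.00993).

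Of the Bcl-2 family genes, Buffy changed with genotype and debcl did not on the TMM scale. Buffy had 464 and 636 counts in Rbf-KD flight muscle, against 707 and 690 in WT, or 15.1 ± 0.892 CPM and 45.4 ± 1.11 CPM (n = 2 each). Both Rbf-KD libraries were lower than both WT libraries, and Buffy fell by 1.65 on the log2 scale (SE 0.14, edgeR adjusted p = 0.00127). It was the member that was called lower with library totals too (log2 -0.54, SE 0.14, adjusted p = 0.0174), and 5.1% of genes had a lower fold change. Counts of debcl were 312 and 328 in Rbf-KD flight muscle, against 129 and 139 in WT. At 8.92 ± 1.1 CPM in Rbf-KD and 8.72 ± 0.821 CPM in WT (n = 2 each) the groups overlapped. The log2 fold change of debcl was -0.03 (SE 0.23, edgeR adjusted p = 0.933) with TMM and 1.09 (adjusted p = 0.0109) with library totals.

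In all, 4 of the 8 members tested in flight muscle were lower in Rbf-KD on the TMM scale and 0 were higher, where 20.3% of all 10930 genes tested were called lower and 19.4% higher. On the TMM scale the CPM ranges of the genotypes did not overlap for 5 members, all lower in Rbf-KD (hid, Diap1, Dronc, Drice and Buffy). Of all genes, 32.1% did not overlap and were lower and 43.1% were higher. Scaled by library totals, hid and Buffy stayed apart and lower, and Dronc overlapped. Diap1, Drice, rpr, Dark and debcl were then apart and higher, and the share of all genes was not counted on that scale. With library totals 4 members (Diap1, Dark, Drice and debcl) were higher and 1 (Buffy) was lower, where 68.2% of all genes were called higher and 5.07% lower. The median log2 fold change of the members was -0.45 on the TMM scale, against 0.10 over all genes. Sums of markers of other cells differed between the genotypes in the same libraries, and these sums are on the TMM scale. All 8 fat body markers rose on both scales. They summed to between 8490 and 8880 CPM in Rbf-KD flight muscle and between 1140 and 1170 CPM in WT. Hemocyte markers summed to between 1240 and 1350 CPM in Rbf-KD and between 685 and 688 CPM in WT, with 2 of 7 higher. Tracheal markers summed to between 663 and 692 CPM in Rbf-KD and between 1310 and 1400 CPM in WT, with 5 of 7 lower. With library totals 1 was lower, and their median log2 fold change was 0.16, against -0.95 with TMM. Cuticle and pigment markers summed to between 321 and 455 CPM in Rbf-KD and between 596 and 831 CPM in WT. With TMM 3 of 6 were lower (median log2 -1.61), and with library totals 1 (median log2 -0.51). Adult muscle precursor markers summed to between 333 and 371 CPM in Rbf-KD and between 374 and 401 CPM in WT, with 2 higher and 2 lower of 6 tested. Of disc epithelium and neuron markers none was called on the TMM scale, of glia markers 1 of 5 was lower, and of tendon cell markers 1 of 5 was higher and 1 lower. With library totals 6 of 8 disc epithelium, 6 of 6 neuron, 4 of 5 glia and 3 of 5 tendon cell markers were higher. So were 5 of 6 adult muscle precursor and 5 of 7 hemocyte markers, and 0 were lower in each of these lists, beside 68.2% higher over all genes. All 8 flight muscle markers were lower on the TMM scale, and with library totals 6 were lower and 1 higher. The part of these cells in the members' values was not tested, and in bulk tissue fewer cells of a type and less RNA per cell cannot be told apart.

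**Figure D2:**
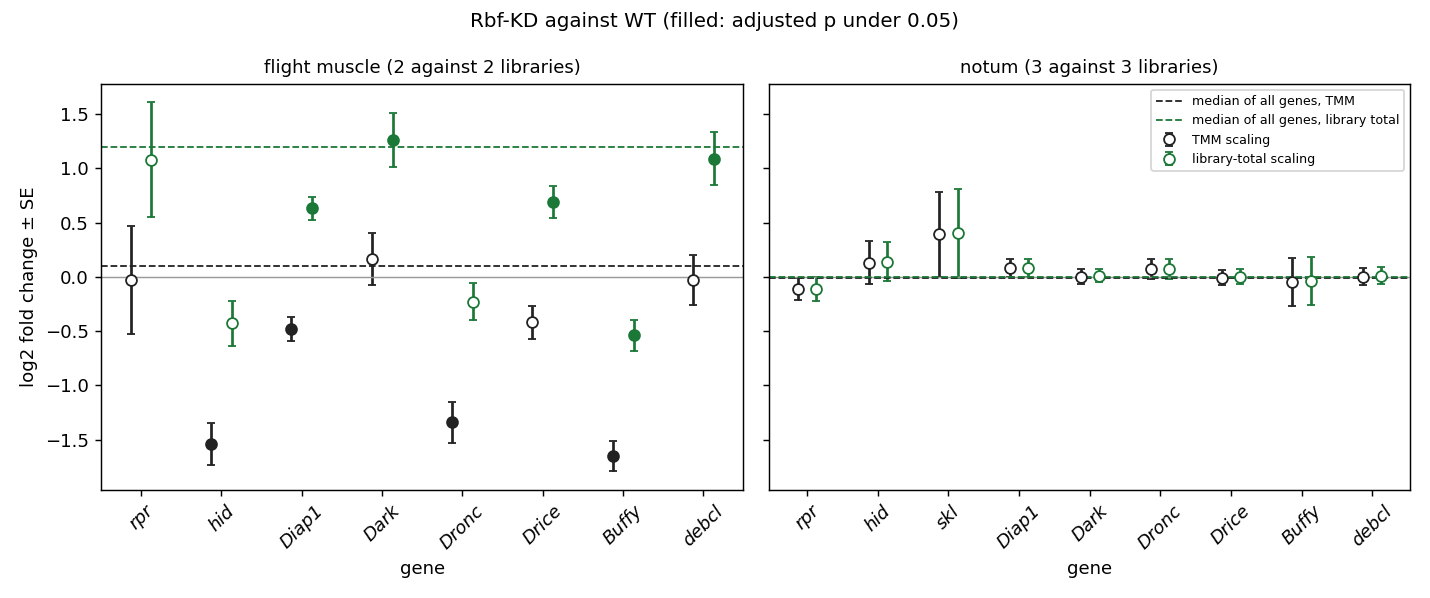
Log2 fold changes ± SE of Rbf-KD against WT in flight muscle (left, 2 libraries per genotype) and notum (right, 3 per genotype) under both scalings, filled where the adjusted p is under 0.05. In flight muscle hid, Dronc and Buffy lie farthest below the dashed median of all genes on either scale, while in notum no point is filled and the highest, skl, is at 0.39 with TMM.

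Ratios of member counts within a library do not depend on scaling. The pairs were chosen after the values were known, so the ratios are given as a description, without a test, and pairs of other genes were not examined. Reads of hid per read of Diap1 numbered 0.0619 and 0.0553 in Rbf-KD flight muscle, against 0.122 and 0.124 in WT flight muscle. For rpr per read of Diap1 the values were 0.0176 and 0.0127 in Rbf-KD and 0.0150 and 0.00724 in WT, and these overlapped. Dronc to Dark was 0.459 and 0.442 in Rbf-KD flight muscle, against 0.932 and 1.78 in WT. Diap1 to Dronc was 2.29 and 1.73 in Rbf-KD, against 1.24 and 0.962 in WT, and the groups were apart. Drice to Dronc was 0.448 and 0.340 in Rbf-KD and 0.223 and 0.190 in WT. Buffy to debcl was 1.49 and 1.94 in Rbf-KD flight muscle, against 5.48 and 4.96 in WT. In notum each of these ratios overlapped between the genotypes except rpr to Diap1, which was between 0.0303 and 0.0352 in Rbf-KD and between 0.0368 and 0.0377 in WT.

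**Figure D3:**
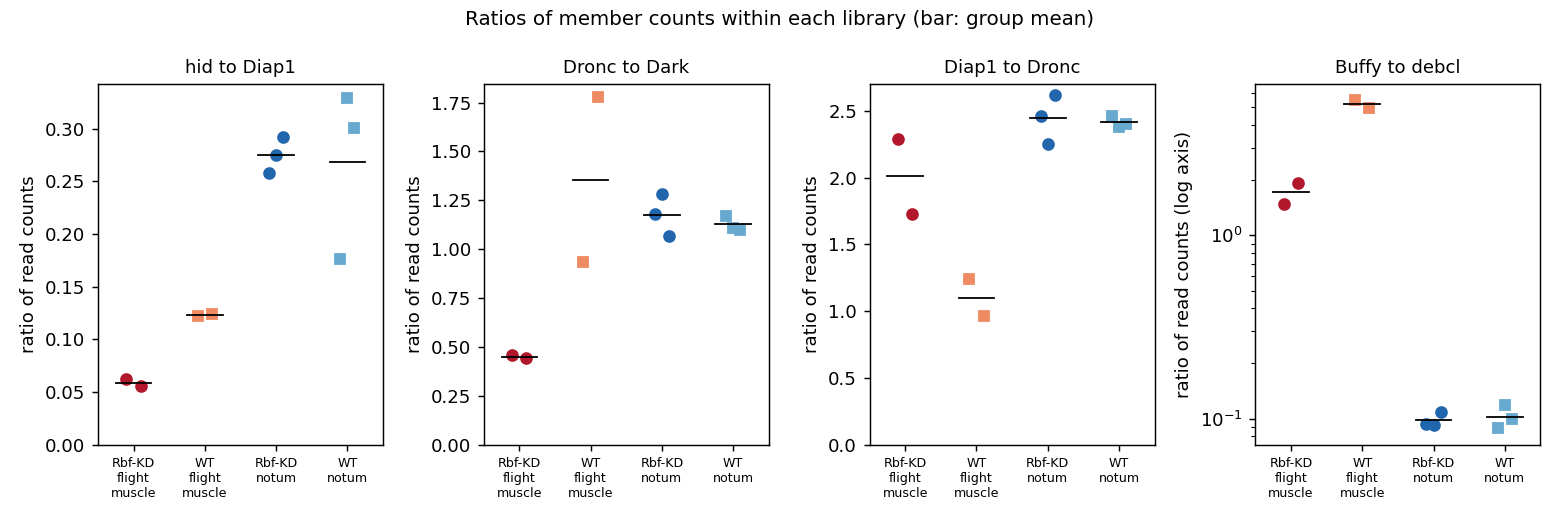
Ratios of the read counts of member pairs within each library, 1 point per library with bars for group means, and a log axis for Buffy to debcl. In flight muscle the Rbf-KD libraries lie below WT for hid to Diap1, Dronc to Dark and Buffy to debcl and above WT for Diap1 to Dronc, and Buffy to debcl is between 0.0885 and 0.118 in all 6 notum libraries.

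In notum no member was called between the genotypes by edgeR, out of 9 tested, where 0.156% of all 12203 genes were called. None of the 9 had an unadjusted p under 0.05 (lowest 0.277, for rpr), and DESeq2, limma-voom and the fit with the replicate number as a block also called 0. Counts of rpr were 525, 535 and 524 in Rbf-KD notum, against 715, 459 and 525 in WT notum, a log2 fold change of -0.11 (SE 0.10). Counts of hid were 3844, 4857 and 4633 in Rbf-KD and 3343, 4101 and 4195 in WT. In CPM this was 50.7 ± 5.96 in Rbf-KD and 45.5 ± 12.8 in WT (n = 3 each), the wider spread of WT coming from replicate 1, where hid was lowest. The log2 fold change of hid was 0.13 (SE 0.20), and without WT replicate 1 it was -0.05. Counts of Diap1 were 14924, 17671 and 15867 in Rbf-KD notum, against 18957, 12466 and 13950 in WT notum. Diap1 was at 184 ± 12.3 CPM in Rbf-KD and 170 ± 4.47 CPM in WT (n = 3 each; log2 0.08, SE 0.08).

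The other members varied little in notum except at low counts. Drice was at 64.5 ± 1.21 CPM in Rbf-KD notum and 63.3 ± 2.3 CPM in WT notum (n = 3 each), with a log2 fold change of -0.01 (SE 0.07). Dark was at 64.4 ± 4.77 CPM in Rbf-KD and 62.7 ± 1.60 CPM in WT, Dronc at 75.8 ± 9.23 and 70.4 ± 0.682 CPM, debcl at 21.3 ± 1.45 and 20.8 ± 2.02 CPM, and Buffy at 2.1 ± 0.327 and 2.13 ± 0.468 CPM. The SE of their log2 fold changes ranged from 0.07 for Dark to 0.22 for Buffy. The gene skl had 52, 35 and 33 counts in Rbf-KD notum and 47, 19 and 27 in WT (log2 0.39, SE 0.39). For grim there were 10, 5 and 3 counts in Rbf-KD notum, against 0, 1 and 1 in WT. Each Rbf-KD library held more than each WT library, but the share of all genes that separate so in notum was not counted. In notum too grim did not pass the filter on low counts. The ratio of summed normalised counts of grim was 9.09 with a 95% interval of 2.18 to 80.8 for counting error only. Without the filter edgeR gave grim an unadjusted p of 0.0349 and an adjusted p of 1.00. Reads of grim are also uncertain, since 44.1% of its transcript lies under the antisense gene asRNA:CR45974 and 31.8% under lncRNA:CR45975, neither of which was analysed here.

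Whether Rbf-KD and WT differed in unlike ways in flight muscle and notum was tested in a fit of all 10 libraries. On the TMM scale it differed for 5 of 9 members, each toward a lower value in flight muscle, where 13.1% of all genes were called in this direction and 17.2% in the other. The difference was -1.64 for hid (SE 0.33, edgeR adjusted p = 0.00514), -1.57 for Buffy (SE 0.27, adjusted p = 0.00241) and -1.38 for Dronc (SE 0.21, adjusted p = 0.00131). It was smaller for Diap1 (-0.53, SE 0.13, adjusted p = 0.0128) and Drice (-0.39, SE 0.11, adjusted p = 0.0220). With library totals the first 3 kept their sign without passing (-0.57, -0.50 and -0.31), while Diap1 (0.55) and Drice (0.69) changed sign and passed. Also past the threshold with library totals were rpr (1.18), Dark (1.25) and debcl (1.08), where 52.1% of all genes were called higher and 2.72% lower. The call of Drice was also lost with limma-voom (adjusted p = 0.0519), with the replicate block (0.0534) and without 8 of the 10 libraries in turn (0.0543 to 0.0833).

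Between flight muscle and notum, Buffy had the highest fold change of the members. It had 707 and 690 counts in WT flight muscle, against 177, 191 and 183 in WT notum. In WT, Buffy was higher in flight muscle by 4.41 on the log2 scale (SE 0.20, edgeR adjusted p = 8.14e-08), at 45.4 ± 1.11 CPM in flight muscle (n = 2) and 2.13 ± 0.468 CPM in notum (n = 3). The same direction was found with library totals (1.67, adjusted p = 2.27e-05), and 91.5% of genes had a lower fold change. Dronc and Dark were higher in WT flight muscle on the TMM scale, by 0.97 (SE 0.15, adjusted p = 2.79e-04) and 0.80 (SE 0.18, adjusted p = 0.00351), but lower with library totals (-1.78 and -1.96). Without WT flight muscle replicate 1 Dark was at 0.42 and did not pass (adjusted p = 0.0539). Lower in WT flight muscle on both scales were rpr (-1.92, SE 0.30), hid (-1.30, SE 0.24), debcl (-1.26, SE 0.14) and Drice (-1.16, SE 0.08, edgeR adjusted p = 9.52e-07). Diap1 at -0.18 (SE 0.09, adjusted p = 0.0921) and skl at -1.37 (SE 0.63, adjusted p = 0.0735) did not pass on the TMM scale and were lower with library totals (-2.94 and -4.06). With 2 and 2 counts in WT flight muscle, skl passed the filter on low counts here only through its notum libraries. A lower call of skl was thus favoured in advance. So 3 of 9 members were higher and 4 lower, where 33.3% and 43.4% of all genes were called in these directions. The members' share called, 7 of 9, was thus near that of all genes. With library totals 1 member was higher and 8 lower, skl among them, where 10.9% and 76.3% of all genes were called so.

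The same contrast was made in the Rbf-KD libraries. Buffy had 464 and 636 counts in Rbf-KD flight muscle, against 163, 180 and 209 in Rbf-KD notum. It was higher in flight muscle by 2.84 (SE 0.19, edgeR adjusted p = 1.54e-06), and 1.17 with library totals. Dronc was lower in flight muscle than in notum, by a log2 of -0.41 (SE 0.15, adjusted p = 0.0348), a call that was lost without Rbf-KD flight muscle replicate 1 (adjusted p = 0.218) or Rbf-KD notum replicate 2 (0.0969). Diap1 was lower and passed (-0.71, SE 0.09, adjusted p = 1.04e-04). Dark was higher by 0.98 (SE 0.18, adjusted p = 0.00112) with TMM and lower with library totals (-0.70), while hid (-2.95), rpr (-1.83), Drice (-1.55) and debcl (-1.26) were lower on both scales. This made 2 members higher and 6 lower, where 34.9% and 39.2% of all genes were called in these directions. With library totals 1 member was higher and 8 lower, again with skl, where 16.1% and 68.5% of all genes were. With 5 and 12 counts in Rbf-KD flight muscle, skl passed the filter only through its notum libraries here too, so a lower call of it was favoured in advance. Within the libraries, Buffy to debcl was between 1.49 and 5.48 in flight muscle of both genotypes and between 0.0885 and 0.118 in notum. Disc epithelium markers, 8 of 8 of which were lower in WT flight muscle, summed to between 42.4 and 57.3 CPM in WT flight muscle and between 637 and 1030 CPM in WT notum, and their part in the tissue contrast was not tested.

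**Figure D4:**
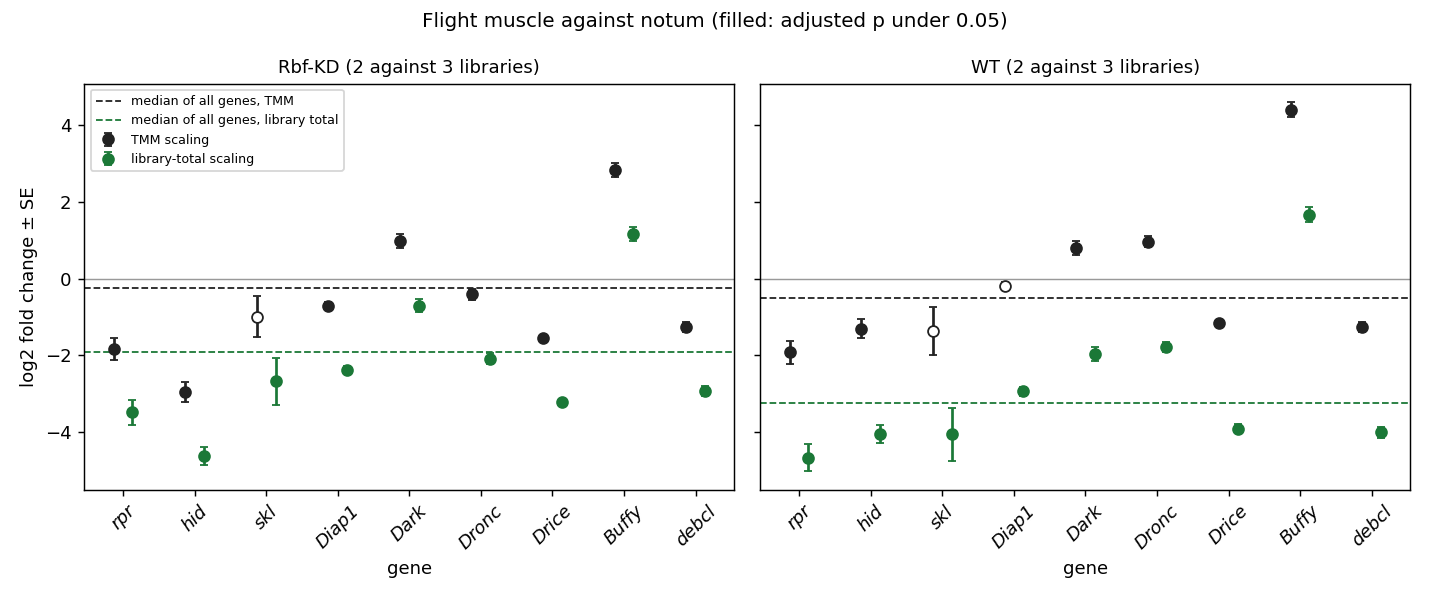
Log2 fold changes ± SE of flight muscle against notum in Rbf-KD (left) and WT (right), each 2 against 3 libraries, under both scalings and filled where the adjusted p is under 0.05. Buffy is the member above 0 on both scales in both genotypes, while Dark, and in WT also Dronc, lies above 0 with TMM and below 0 with library totals.

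Other genes of the cell death pathway were counted from 8 lists with 69 genes. In flight muscle 4 of 68 tested were higher and 23 lower in Rbf-KD (median log2 -0.24, against 0.10 over all genes), where 19.4% and 20.3% of all genes were called in these directions. With library totals 42 were higher and 4 lower, where 68.2% and 5.07% of all genes were. Autophagy genes, which serve the lysosomal breakdown of cell contents, held the largest number of lower calls on the TMM scale, with 11 of 17 lower and 0 higher, beside 20.3% lower over all genes. Of these the kinase gene Atg1 was lower by a log2 of -1.89 (SE 0.12, edgeR adjusted p = 8.29e-04, -0.78 with library totals), and Atg8a, which encodes a protein of the autophagosome membrane, by -1.45 (SE 0.13, -0.34 with library totals). With library totals 10 autophagy genes were higher and 2 lower, beside 68.2% higher and 5.07% lower over all genes. Of the JNK and TNF pathway genes, which relay stress signals, 4 of 12 were lower and 0 higher on the TMM scale, and 1 lower and 7 higher with library totals. Lower with TMM were the TNF receptor gene wgn (-1.85, SE 0.13, and -0.74 with library totals) and the Fos gene kay (-1.14, SE 0.14, and -0.04 with library totals). Mitochondrial factors and nucleases were lower for 4 of 9 and higher for 0, and with library totals lower for 1 and higher for 4. Those lower with TMM included the cytochrome c gene Cyt-c-p (-2.09, SE 0.15, and -0.97 with library totals) and Drep4 (-1.33, SE 0.13, and -0.22 with library totals), which encodes the caspase-activated DNase. Counts of Drep4 are uncertain, since 52.7% of its transcript lies under asRNA:CR44083 on the opposite strand.

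DNA damage inputs were the list with most calls upward in Rbf-KD flight muscle on the TMM scale, with 3 of 5 higher and 0 lower, beside 19.4% higher over all genes. With library totals 4 of the 5 were higher, and the autophagy, JNK and TNF, engulfment and IAP lists then held more upward calls. The ATM kinase gene tefu was higher by 2.44 (SE 0.14, edgeR adjusted p = 7.30e-04) and the Chk2 kinase gene lok by 1.41 (SE 0.25, adjusted p = 0.00927), where lok shares 5.1% of its transcript with vls. With library totals these were at 3.54 and 2.52. Of the other caspases Dcp-1, an effector caspase gene, was higher (1.02, SE 0.27, adjusted p = 0.0310), and the other 4 did not pass, while with library totals 2 of the 5 were higher. Dcp-1 shares 13.7% of its transcript with pita on the opposite strand, and its counts are uncertain to that extent. Of the other IAP genes and their regulators 1 of 6 was lower, eff, which encodes a ubiquitin-conjugating enzyme (-0.95, SE 0.12, and 0.16 with library totals), and with library totals 5 of the 6 were higher. The engulfment list had 1 of 7 lower, Ced-12 (-0.85, SE 0.16, and 0.26 with library totals), beside 20.3% lower over all genes, and with library totals 6 of the 7 were higher. The hormone regulators had 2 of 7 lower, the ecdysone response genes Eip75B (-1.33, SE 0.20) and Eip74EF (-1.24, SE 0.18), at -0.23 and -0.14 with library totals, where 4 of the 7 were higher and 0 lower. In notum 0 of 66 genes of these lists were called.

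**Figure D5:**
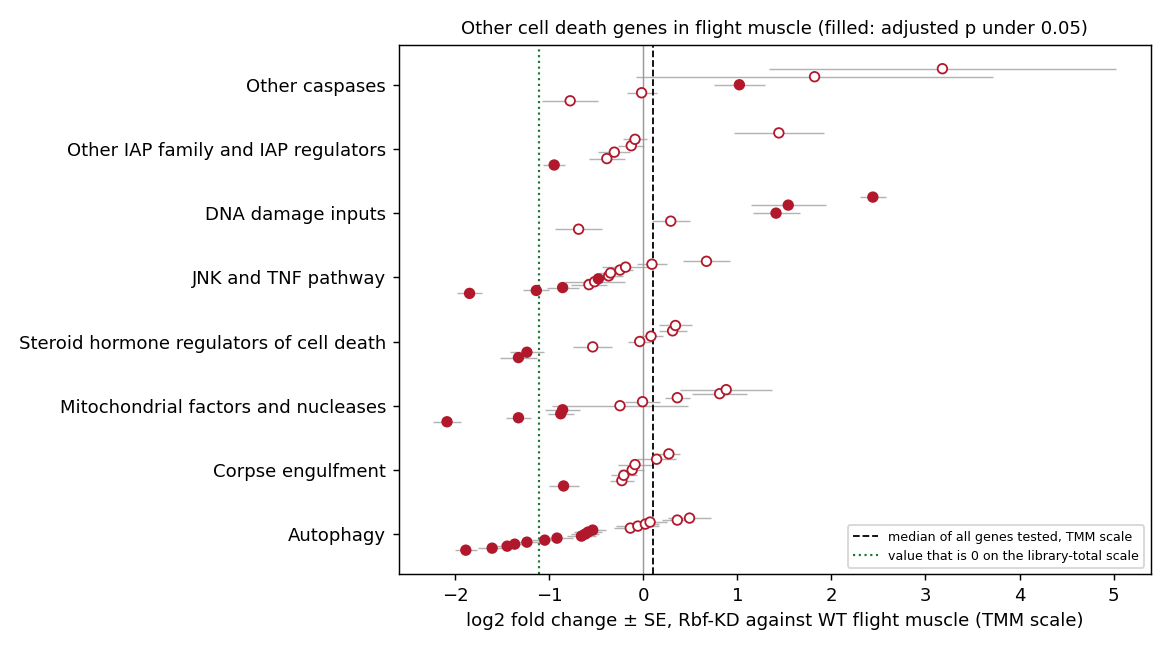
Log2 fold changes ± SE of Rbf-KD against WT flight muscle on the TMM scale for 68 other cell death genes in 8 lists, filled where the adjusted p is under 0.05, with the dashed line at the median of all genes. Filled points left of 0 gather in the autophagy list (11 of 17), and those right of 0 are 3 DNA damage genes and 1 caspase gene.

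Between the tissues, 40 of the 68 genes were higher and 15 lower in WT flight muscle than in WT notum on the TMM scale, where 33.3% and 43.4% of all genes were called in these directions. With library totals 10 were higher and 54 lower, beside 10.9% and 76.3% of all genes. Higher on both scales were wgn (4.31, SE 0.10), Cyt-c-p (8.71, SE 0.14) and the nuclear receptor gene ftz-f1 (7.86, SE 0.17). Lower on both were Dcp-1 (-3.28, SE 0.13), lok (-3.82, SE 0.12), the ATR kinase gene mei-41 (-5.24, SE 0.19) and Det (-4.99, SE 0.18), an IAP family gene related to survivin. In Rbf-KD 29 were higher and 19 lower in flight muscle on the TMM scale, beside 34.9% and 39.2% of all genes. With library totals 12 were higher and 50 lower there, beside 16.1% and 68.5% of all genes.

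The transcript rows of hid, and those of Dark, held unlike counts. The model hid-RA extends hid-RB at its 3′ end by 1828 bases in the BDGP6 annotation and contains all of it. The share of hid-RA counts outside hid-RB was 44.9% and 45.6% in Rbf-KD flight muscle, against 50.9% and 50.4% in WT flight muscle. The Wilson 95% interval of each Rbf-KD library overlapped that of each WT library. The lowest and highest limits of the single libraries were 38.5% and 51.8% in Rbf-KD and 44.5% and 56.5% in WT. In notum the share was 64.8%, 62.8% and 58.0% in Rbf-KD, against 58.5%, 53.4% and 62.6% in WT. All 6 notum libraries thus lay above all 4 flight muscle libraries. The interval of WT notum replicate 2 (51.9% to 54.9%) nonetheless lay within that of WT flight muscle replicate 1 (45.2% to 56.5%). Whether counts fell evenly along the gene was not tested.

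For Dark, the 2 rows did not follow the BDGP6 models. Dark-RA contains every base of Dark-RB and 59 more in BDGP6, yet held between 36.8% and 41.6% of the counts of Dark-RB in the 10 libraries. The annotation used for counting is not given in the sources used here, so the length of Dark is uncertain, and so is its place in the order per kilobase. With the Dark-RA row in its place no call of Dark changed in any of the 5 comparisons. Dark-RB also lies for 57.6% of its length under asRNA:CR44390 on the opposite strand, which was not analysed here, and Diap1 for 7.9% under asRNA:CR45889. The strand setting is not given either, so reads of such antisense partners cannot be told apart from those of the gene.

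The gene most like each member across the 10 libraries was sought among protein-coding genes with a mean of at least 1 CPM, 10150 in number, by Pearson's r of log2(CPM + 0.5). The libraries share 4 groups, so r describes mostly the differences between groups, and no test was made. CG33170 was closest to Buffy (r = 0.999), GstD1, a glutathione transferase gene, to rpr (0.998), CG4766 to Drice (0.997), Prp39 to debcl (0.996) and CG14731 to hid (0.994). Nedd4, a ubiquitin ligase gene, was closest to Dark (0.985), KLHL18 to Dronc (0.982), Clamp to Diap1 (0.979) and CG14669 to skl (0.955). Among the members themselves the closest pair was Drice and debcl (0.97), followed by rpr and debcl and by hid and Diap1 (0.95 each). Dronc was closest to Buffy at only 0.54.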

How the data were processed

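Per the labels' protocols, total RNA went through Ribo-Zero depletion and a stranded TruSeq preparation. The file the authors deposited gives raw, unnormalised read counts of 29173 transcripts. The submitters' processing notes name DESeq2 1.14.1, featureCounts from Subread, TopHat2 2.1.1 with Bowtie2 2.3.2, bcl2fastq 2.17.1.14 and FastQC, and the build BDGP5. The annotation, strand setting and handling of shared reads are not given in the sources used here. From the values, transcripts of 1 gene share reads.

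By identifier, 27011 transcripts (92.6%) matched 15259 genes of the BDGP6 annotation, and only chromosome arms are given because the builds differ. The unmatched rows held between 9.86% and 20.34% of a library's counts and were left out. A gene's count is that of its transcript of highest total. The filter was filterByExpr with a minimum count of 10 and a minimum total of 15. TMM scaling preceded edgeR's quasi-likelihood test (version 4.0.16, robust, in R 4.3.3), at a Benjamini-Hochberg adjusted p under 0.05 over all genes. The SE of a log2 fold change is its size over the root of F. Genotypes were compared within each tissue on that tissue's libraries, and tissues and the difference of effects in a fit of all 10 libraries. CPM values are scaled over all 10 libraries. Alternatives were library totals, DESeq2 1.42.0, limma-voom (limma 3.58.1), no filter, the sum over transcripts, other sets of libraries in the fit, a replicate block, and each library left out. The fits were tested on simulated data. Without molecular identifiers, intervals and floors hold for counting error alone.

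Deviations of same-numbered libraries correlated at 0.685, 0.595 and 0.311 in notum and at -0.201 in flight muscle. Rbf-KD notum replicate 3 correlated more with WT notum replicate 2 (0.584) than with WT notum replicate 3. In notum only replicate 1 had negative correlations with all other numbers, which follows in part from centring each group on its mean. With 2 libraries per genotype, flight muscle can give only 1 value and its opposite (-0.201 and 0.201). Pairing by number could thus not be judged there, and the main tests used none. The members and lists were chosen with earlier results of these data known. Named beside the members are, by rule, at most 2 called genes of smallest adjusted p per list and direction.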

Additional observations from a re-analysis of the deposited data

Results flagged for a closer look

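The effect of genotype differed between flight muscle and notum for 5 of 9 members by the edgeR test of the difference itself on the TMM scale. Each of the 5 went toward a lower value in flight muscle, where 13.1% of all genes were called in this direction and 17.2% in the other. The differences of log2 fold changes were -1.64 for hid, -0.53 for Diap1, -1.38 for Dronc, -0.39 for Drice and -1.57 for Buffy. The call of Drice was lost with the replicate block (adjusted p = 0.0534), with limma-voom (0.0519) and in 8 of the 10 fits without 1 library, and with library totals hid, Dronc and Buffy did not pass and Diap1 and Drice changed sign. Libraries differed in fat body markers beside this, with 8 of 8 higher in Rbf-KD flight muscle and 0 of 8 called between the genotypes in notum, and their part in the differences was not tested.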

How the results depend on the processing

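Calls of hid, Dronc and Buffy in flight muscle held with DESeq2, limma-voom, no filter and the sum over transcripts. They also held with the replicate block and in the fit of all 10 libraries. With library totals Buffy stayed called (edgeR adjusted p = 0.0174), while hid (0.111) and Dronc (0.248) did not pass. In flight muscle with 1 library left out, values ranged from -1.63 to -1.42 for hid, -1.53 to -1.15 for Dronc and -1.71 to -1.57 for Buffy. Library totals reversed the sign of rpr (1.08), Diap1 (0.63), Drice (0.69) and debcl (1.09) there, of Dark (-1.96) and Dronc (-1.78) in WT flight muscle against notum, of Dark (-0.70) in Rbf-KD flight muscle against notum, and of Diap1 (0.55), Drice (0.69) and debcl (1.08) in the difference of effects. The counts of all genes called became 8003 against 4348 in flight muscle and 7354 against 4069 for the difference of effects. In notum 19 genes were called, against 130 with DESeq2, 79 with the replicate block and 40 without both replicate 1 libraries, a choice made after seeing the data. Leaving out 1 library gave between 1 and 18 calls in notum and between 2396 and 2991 in flight muscle. The cause was not tested.

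Other reversals were of values that did not pass in the main fit. Of these skl was at 0.38 (SE 0.81) there in the difference of effects, and the rest were smaller. In flight muscle rpr was at 0.04 with the replicate block, 0.01 with it crossed and 0.02 in the fit of all 10 libraries, and debcl at 0.00 with no filter and 0.03 in the fit of all 10. In notum Drice was at 0.00 with library totals, 0.02 with DESeq2, with no filter and with the sum over transcripts, 0.03 in the fit of all 10 and 0.03 without both replicate 1 libraries, and hid at 0.00 from the hid-RB row. For the difference of effects rpr was at -0.07 with DESeq2, and debcl at 0.03 with no filter, 0.01 with the sum over transcripts and 0.00 with the replicate block. With 1 library left out, flight muscle values ranged from -0.46 to 0.57 for rpr, from -0.10 to 0.45 for Dark and from -0.16 to 0.13 for debcl. In notum they ranged from -0.05 to 0.32 for hid, -0.02 to 0.09 for Dark, -0.05 to 0.05 for Drice, -0.18 to 0.13 for Buffy and -0.04 to 0.08 for debcl. For the difference of effects they ranged from -0.34 to 0.76 for rpr, -0.16 to 0.76 for skl, -0.09 to 0.53 for Dark and -0.13 to 0.13 for debcl. Where 1 library remains in a group, it is assumed to vary like the others. Drice passed in flight muscle with DESeq2 (adjusted p = 0.0378) and in the fit of all 10 libraries (0.00766). The replicate block changed no member's call other than that of Drice in the difference of effects. In flight muscle the same-numbered libraries correlated at -0.201, and 3622 genes were called with the block, 4177 with the numbers crossed (added after seeing the data) and 4 members in each. Depth limits grim and skl, with at most 12 counts per flight muscle library.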
